A study of Caenorhabditis elegans with 2 samples.

Results

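The X chromosome of the nematode Caenorhabditis elegans carried 1008 of the 4963 reproducible binding regions (peaks) of the forkhead transcription factor FKH-8 in first-stage (L1) larvae. They are the regions of the authors' optimal list, filtered by irreproducible discovery rate (IDR, which measures how far the 2 replicates rank peaks alike), that lie on X of the ce11 build. The other 3955 regions lie on the 5 autosomes. No measured value chose the X regions beyond that list. Chromatin immunoprecipitation with sequencing (ChIP-seq) was done in 1 group of animals with 2 biological replicates. All animals were whole, mixed-sex larvae of strain OP652, genotype unc-119(tm4063) III; wgIs652, whose integrated transgene encodes FKH-8 with GFP and FLAG at its C terminus. They were taken 6 hours after synchronization as L1 larvae that had been starved after bleaching. The description names an antibody against GFP, while the antibody field names fkh-8. There was no second genotype, treatment or stage, and the control that the labels mention was not used here. Because the larvae were whole, occupancy in more cells and more occupancy per cell cannot be told apart, and the tagged protein stands in for FKH-8.

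FKH-8 is a forkhead protein known in C. elegans as a regulator of genes for cilium assembly in ciliated neurons, where it acts with the RFX factor DAF-19, whose binding site is the X-box. The X chromosome is present as a pair in hermaphrodites and singly in males. In hermaphrodites the dosage compensation complex loads onto X at recruitment sites, many of which carry the MEX motif, and lowers transcription along the chromosome. X is known for few germline and ribosomal protein genes, many neuronal genes and a large part of the transfer RNA (tRNA) genes.

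The 6 sequences here are the highest X peak, the 3 cilium genes with the highest X peaks holding an X-box, the highest X peak with the forkhead site GTAAACA and the highest with GCGCAGG, a stretch of the MEX motif. Each runs 100 bases to either side of the summit on the forward strand of the RefSeq genome on ce11, with the searched motif in capitals where it matches on either strand. The puf-9 peak (chrX:5841224-5841424) has the FOXN-type forkhead core GACGC in capitals. The osm-5 (chrX:2984096-2984296), dyf-11 (chrX:763468-763668) and ifta-1 (chrX:5552689-5552889) peaks have the X-box in capitals, 20, 6 and 7 bp from the summit. The C05G5.2 peak (chrX:14747087-14747287) has GTAAACA, read on the reverse strand, and the peak in an intron of mom-1 (chrX:6296490-6296690) has GCGCAGG at 2 places.
puf-9: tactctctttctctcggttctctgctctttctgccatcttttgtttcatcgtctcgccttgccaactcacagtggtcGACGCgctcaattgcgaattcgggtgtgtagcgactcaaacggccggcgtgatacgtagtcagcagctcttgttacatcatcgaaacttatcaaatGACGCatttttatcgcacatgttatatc
osm-5: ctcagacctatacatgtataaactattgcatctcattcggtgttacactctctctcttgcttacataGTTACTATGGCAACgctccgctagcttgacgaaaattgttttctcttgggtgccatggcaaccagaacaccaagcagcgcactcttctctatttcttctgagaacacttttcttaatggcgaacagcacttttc
dyf-11: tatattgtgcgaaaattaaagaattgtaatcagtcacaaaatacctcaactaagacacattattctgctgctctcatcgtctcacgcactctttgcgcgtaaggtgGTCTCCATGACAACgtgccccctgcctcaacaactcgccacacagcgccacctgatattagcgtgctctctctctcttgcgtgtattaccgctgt
ifta-1: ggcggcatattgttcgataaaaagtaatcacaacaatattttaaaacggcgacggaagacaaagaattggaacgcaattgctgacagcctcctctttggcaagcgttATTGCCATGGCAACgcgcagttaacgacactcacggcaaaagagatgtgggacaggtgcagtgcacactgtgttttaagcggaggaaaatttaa
C05G5.2: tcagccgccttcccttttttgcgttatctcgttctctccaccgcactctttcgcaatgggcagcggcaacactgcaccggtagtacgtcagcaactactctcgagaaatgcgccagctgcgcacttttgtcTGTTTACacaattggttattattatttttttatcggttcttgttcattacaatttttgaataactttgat
mom-1 intron: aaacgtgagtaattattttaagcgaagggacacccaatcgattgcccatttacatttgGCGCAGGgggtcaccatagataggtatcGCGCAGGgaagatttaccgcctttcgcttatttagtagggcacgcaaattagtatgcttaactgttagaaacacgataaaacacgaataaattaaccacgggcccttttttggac

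The 20 strongest X peaks had signals from 672.5 to 1301.5. The highest was 268 bp upstream of puf-9, which encodes a Pumilio-type RNA-binding protein, with a signal of 1301.5 in the pooled data, 705 in replicate 1 and 588.9 in replicate 2. Signal is the authors' value for a peak, with no stated scale, and pooled values run higher than those of single replicates. The puf-9 peak ranked 12 in the whole genome, and the highest autosomal peak reached 2101.8. The peak 486 bp upstream of epn-1, which encodes the endocytic adaptor epsin, had 1034.2 (511.4 in replicate 1 and 536 in replicate 2). The peak 357 bp upstream of eef-1A.2, for a translation elongation factor, had 863.9 (410.9 and 459.4). All 3 peaks, picked by the pooled signal of the same replicates, were in both replicates far above the replicate medians on X, which were 76.9 and 81.2. The peak 73 bp upstream of hsp-3, which encodes a chaperone of the endoplasmic reticulum, had 765.4 (336.9 and 419.6). The peak upstream of dpy-23, for a subunit of the AP-2 clathrin adaptor, had 695.3, that of the autophagy gene epg-7 682.4, and that of the ribosomal protein gene rpl-11.2 672.5.

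Of the 20 strongest X peaks, 10 had their summit in no promoter window, which starts 1000 bp before a coding gene's 5′ end and stops 200 bp after it. Over all X peaks, 647 of 1008 summits lay in no such window. In the highest quintile by signal, 43.1% of X peaks lay in one. The second strongest, at 1097.7 (534.9 and 559.1), lay 5837 bp from the nearest coding 5′ end, that of C30E1.4. The peak with 861.2 lay 2644 bp upstream of dct-1, a mitophagy receptor gene, and that with 977.9 lay 1519 bp upstream of tmem-184. Introns held the peaks with 819.4 in mom-1, which encodes a Porcupine-type enzyme of Wnt secretion, with 788.7 in unk-1, and with 738.9 in aak-2, which encodes a catalytic subunit of AMP-activated kinase. All 20 overlapped a best peak of both replicates, meaning one of the 4963 highest peaks of that replicate's own list. So did 100% of X peaks and 99.9% of autosomal peaks in the highest quintile by signal. The signal that ranks them comes from the pool of the same 2 replicates, so this overlap is no separate support.

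Peaks were about as dense on X as on the densest autosome. X had 56.9 summits per Mb, against 47.9 over all autosomes, with a range from 41.3 on V to 57.02 on III. X held 20.3% of all peaks (exact 95% interval 19.2 to 21.5, counting error only) on 17.7% of the genome's length. In the best peaks of replicate 1, X had 58.4 per Mb against 47.6, and in those of replicate 2 57.3 against 47.8, so X was the higher in both. In a quasi-Poisson model of summits per 1-Mb segment the ratio was 1.19 (95% interval 1.01 to 1.40), which did not pass after adjustment over the 20 tests of this comparison (Benjamini-Hochberg adjusted p = 0.0927, n = 18 segments on X). With the 9926 highest pooled peaks instead, the ratio was 1.30 and passed (adjusted p = 0.00226, n = 18 segments on X). With the best peaks of a single replicate it was 1.23 for replicate 1 and 1.20 for replicate 2. It did not pass among the highest 2481 peaks (1.14), with segments of 2 Mb (1.19) or with summits within 200 bp merged (1.19). Nor did it pass with the authors' list on the ce10 build (1.18) or without peaks near tRNA genes (1.13). All p-values treat peaks or segments of 1 X chromosome as units, and peaks are not replicates of a chromosome.

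**Figure D1:**
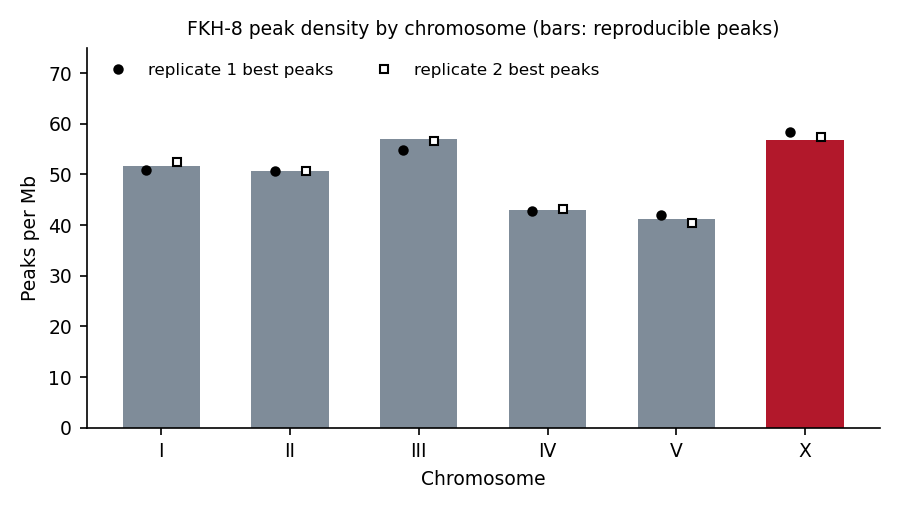
Summits per Mb on each chromosome, as bars for the reproducible peaks and points for the best peaks of replicate 1 (filled circles) and replicate 2 (open squares). X, in red, stands at 56.9 per Mb, beside 57.02 on III and above the other autosomes.

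The share of X peaks was lower among the highest peaks of the ranking. X held 13 of the 100 highest peaks, 182 of the 1000 highest (18.2%) and 2161 of the 9926 highest pooled peaks (21.8%). The median signal was 160 on X and 165 on autosomes, and the difference of 0.06 on the log2 scale, X lower, did not pass (adjusted p = 0.159, n = 4963 peaks). Of the 3847 pooled X peaks, 26.2% were reproducible, against 28.0% on autosomes and 27.6% over the genome. A best peak of both replicates overlapped 850 of the 1008 X peaks (84.3%), where 83.6% did so over all peaks and 83.4% on autosomes (odds ratio 1.07, 95% interval 0.882 to 1.29, adjusted p = 0.628, n = 4963 peaks). The other 158 X peaks had signals from 94.97 to 143 and comprised 80 found only in the best peaks of replicate 1, 72 only in those of replicate 2 and 6 in neither. Spearman's rho between the replicates' signals was 0.828 over 1007 X peaks and 0.847 over 3953 autosomal ones, as a description across peaks of the same libraries.

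Fewer X peaks were at promoters. The summit lay in a promoter window for 361 X peaks (35.8%, exact 95% interval 32.9 to 38.9) and for 46.7% of autosomal peaks, and no autosome was below 44.4%. In the replicates' own best peaks the share was 34.2% and 35.5% on X, against 46.25% and 46.9% on autosomes, a mean of 34.9% ± 0.916 against 46.6% ± 0.478 (SD, n = 2 replicates). X was the lower within each replicate. Across all peaks the odds ratio was 0.638 (95% interval 0.523 to 0.777, adjusted p = 4.32e-05, logistic model with errors clustered by 1-Mb segment, n = 4963 peaks). X was lower in every quintile of the signal ranking, from 43.1% against 59.5% in the highest to 29.0% against 41.8% in the lowest. The median distance from a summit to the nearest coding 5′ end was 1467.5 bp on X and 932 bp on autosomes, a difference of 0.18 on the log10 scale (adjusted p = 2.67e-05, n = 4963 peaks).

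The X chromosome also had less promoter sequence. Promoter windows covered 17.6% of X and 22.3% of the autosomes, with 154 coding genes per Mb on X against 209. Per Mb of window sequence X had 116 summits and the autosomes 100 (density ratio 1.15, 95% interval 0.951 to 1.40, adjusted p = 0.245, n = 18 segments on X). Outside the windows X had 44.3 summits per Mb against 32.9 (ratio 1.35, 95% interval 1.11 to 1.64, adjusted p = 0.00809, n = 18 segments on X). Without peaks within 500 bp of tRNA genes that ratio was 1.26 and did not pass (adjusted p = 0.0629, n = 18 segments on X).

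**Figure D2:**
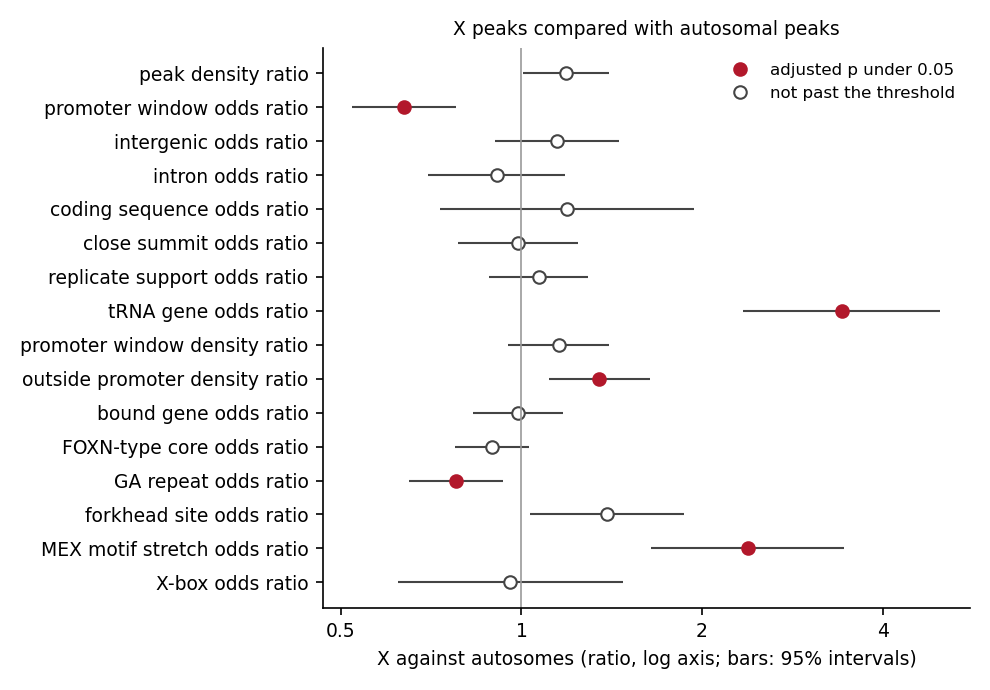
Odds ratios and density ratios of X against autosomes with their 95% intervals on a log axis, filled where the adjusted p was under 0.05. The 3.42-fold odds for tRNA genes and the 0.638-fold odds for promoter windows lie farthest from 1 on either side; the motif names stand for GACGC (FOXN-type core), GAGAGA (GA repeat), GTAAACA (forkhead site) and GCGCAGG (MEX motif stretch).

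By place, 713 X summits (70.7%) were between coding genes, 233 (23.1%) in introns, 26 (2.58%) in coding sequence and 36 in other exon sequence. Intergenic sequence makes up 44.5% of X and 35.8% of the autosomes. None of the differences from autosomes in the intergenic, intron or coding share passed (adjusted p from 0.408 to 0.628, n = 4963 peaks). More than 5000 bp from any coding 5′ end lay 144 X summits (14.3%, against 11.6% on autosomes), 60 of them in introns, and the farthest was 23073 bp away. Several long genes held many summits, most of them in introns. These genes were picked after their values were seen. The neuronal gene cab-1 held 9 summits over 13247 bp, with signals up to 658, and scd-1 held 7. The class II histone deacetylase gene hda-4 and the G-protein regulator gene ags-3 held 6 each, of which 5 in ags-3 were in introns, and lin-14, which times larval cell fates, held 5.

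A coding gene was called bound when a reproducible summit lay in its promoter window. On X 373 of 2731 coding genes were bound, or 13.7%, where 13.8% were bound over the genome (odds ratio against autosomes 0.988, 95% interval 0.832 to 1.17, adjusted p = 0.908, n = 19973 genes). The autosomes ranged from 9.85% on V to 20% on III. When each summit was given to its nearest coding gene at any distance, 25.3% of X genes and 16.9% of autosomal ones had a summit (odds ratio 1.66, adjusted p = 8.70e-13, n = 19973 genes). Every summit is given to a gene in this count, so the share depends on how many summits there are per gene. X had 1008 summits for 2731 coding genes, and the autosomes had 3955 for 17242. The median distance from a gene to its upstream neighbour was 2123 bp on X and 826 bp on autosomes.

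Among 13 cilium genes on X, 7 were bound. The genome-wide share of 13.8% is the background for this count, and 31 of 58 autosomal cilium genes were bound, a like share. All 7 encode parts of intraflagellar transport or its dynein motor. The osm-5 peak, 67 bp upstream, had a signal of 446.7 (235.5 in replicate 1 and 203.4 in replicate 2). The dyf-11 peak, 184 bp upstream, had 410.7 (194.1 and 217.7), and the ifta-1 peak, 37 bp upstream, had 367.6 (177.4 and 195.4). These 3 genes stood above the other members in both replicates, and their X-boxes are shown in the sequences. The peaks of ift-81 (175), che-2 (162.4), dylt-2 (146.6) and dyf-6 (118.8) were lower. An X-box also lay at the che-2 and dylt-2 summits.

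Not bound were dyf-7, which anchors sensory dendrites, the transition zone genes jbts-14, mksr-1 and tmem-218, the transport subunit gene osm-1, and dyla-1. A summit lay 416 bp from the 5′ end of tmem-218 and another 687 bp from that of osm-1, both inside the gene and outside the promoter window. Each gene was given a single 5′ end, that of its whole annotated span, so transcript starts inside a gene were not considered. The jbts-14 window held a pooled peak of 89.9, below the 94.97 of the lowest reproducible X peak.

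Of 6 X genes that count the X chromosomes or act in sex determination and dosage compensation, 3 were bound, beside 13.8% of all coding genes. The homeodomain gene ceh-39, an X signal element, had a peak 170 bp upstream with 295.6 (142.6 and 144.6). The peak of sdc-2, whose product brings the dosage compensation complex to X, had 198.9 (113.1 and 80.01) at 401 bp upstream. The peak of sdc-1, which encodes its partner, had 163 (69.59 and 90.25) at 276 bp upstream. The master switch gene xol-1 and the X signal elements sex-1 and fox-1 were not bound, with the nearest summits 4637, 7966 and 47050 bp from their 5′ ends. On autosomes 4 of 19 genes of this list were bound.

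Nuclear hormone receptor genes were bound at 11 of 27 on X (40.7%) and at 39 of 247 on autosomes (15.8%), beside 13.8% of all coding genes. The highest were nhr-48 with 564.2 (274.5 and 292.8), nhr-1 with 357.8 (189.7 and 171.5), nhr-167 with 300.8 and nhr-214 with 284.3. Of these 11 peaks, 10 overlapped a best peak of both replicates, the exception being that of nhr-40.

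Counts for the housekeeping lists on X stand beside a share of 13.8% bound over all coding genes. All 3 translation factor genes were bound (eef-1A.2, ife-2 with 113.9 and ife-4 with 101.4), as were 2 of 3 vacuolar ATPase genes (vha-12 with 396.6 and vha-15 with 264.8), 3 of 5 chaperone genes and the succinate dehydrogenase gene sdha-1 (374.7). Of the 81 ribosomal protein genes only 2 lie on X, and 1 of these was bound, against 67 of 79 on autosomes. On autosomes 22 of 39 translation factor genes, 7 of 18 vacuolar ATPase genes and 27 of 60 chaperone genes were bound. In the list of Rab and secretion genes 4 of 12 were bound (28 of 71 on autosomes), led by rab-14 with 547.9 and sec-15 with 474.5. The sec-15 summit also lay 83 bp from a tRNA gene. The ubiquitin-conjugating enzyme genes ubc-21 and ubc-22 share 1 summit of 217.4.

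For the neuronal and other tissue lists, the share of 13.8% bound over all coding genes is again the background. Of 41 transmitter receptor genes only glr-6, a glutamate receptor gene, was bound (268.9), and of 19 potassium channel genes, 6 touch neuron genes, 30 collagen genes and 4 gut GATA-list genes none was. On autosomes 3 of 85, 1 of 48, 1 of 9, 5 of 145 and 0 of 9 genes of these lists were bound, in the same order. Bound synapse genes were 4 of 12 (8 of 38 on autosomes), among them syd-2, a presynaptic scaffold gene, with 351 (190.4 and 155.7), and unc-18, for synaptic vesicle fusion, with 181.4. The list also holds cab-1, which counts as not bound because its 9 summits lay in introns outside its promoter window. Bound neuropeptide genes were 3 of 33 (nlp-76, nlp-1 and nlp-14), bound homeobox genes 2 of 27 (ceh-39 and ttx-3), and 1 of 13 muscle genes, act-4 (277.2), was bound. The autosomal counts for these lists were 2 of 71, 3 of 65 and 3 of 31. Of 19 sensory G-protein pathway genes 2 were bound (15 of 42 on autosomes), gpc-1 with 275.2 and the diacetyl receptor gene odr-10 with 127.7. Of 33 chemoreceptor genes 1 was bound (86 of 1276 on autosomes), srd-40 with 149.6. Of the 6 axon guidance genes zig-4 and sax-1 were bound (3 of 32 on autosomes). So were ain-1 (636.6) and lin-14 (161.5) of 6 heterochronic genes (3 of 8 on autosomes), and ins-39 (471) of 2 insulin genes (4 of 36 on autosomes). The 1 germline gene on X was not bound, and 4 of 41 on autosomes were.

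Of the features tested, nearness to a tRNA gene had the highest odds ratio of X against autosomal peaks. Of 612 tRNA genes, 276 (45.1%) lie on X. The summit was within 500 bp of a tRNA gene for 68 X peaks (6.75%, exact 95% interval 5.28 to 8.47) and for 82 autosomal peaks (2.07%), with no autosome above 2.455%. The replicates' best peaks gave 6.67% and 7.09% on X and 2.06% and 2.15% on autosomes, a mean of 6.88% ± 0.292 against 2.11% ± 0.065 (SD, n = 2 replicates). The odds ratio was 3.42 (95% interval 2.34 to 4.99, adjusted p = 4.22e-09, n = 4963 peaks). Sequence within 500 bp of tRNA genes makes up 1.38% of X and 0.398% of the autosomes. Counted by gene, 80 of 276 X tRNA genes (29.0%, exact 95% interval 23.7 to 34.7) and 88 of 336 autosomal ones (26.2%, 21.6 to 31.2) had a summit within 500 bp, and these intervals overlap.

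The X peaks near tRNA genes had a median signal of 190, against 158 for the other X peaks. Of the 68, 62 overlapped a best peak of both replicates, beside 84.3% of all X peaks and 72 of the 82 autosomal peaks near tRNA genes. Such overlap was more common at higher pooled signal of the same replicates, so it is no separate support. In 30 of the 68 X peaks the summit lay inside the tRNA gene itself. In the highest quintile of the signal ranking 7.18% of X peaks and 0.37% of autosomal peaks were near a tRNA gene. The highest, 210 bp from WBGene00022939, had 566 (269.8 in replicate 1 and 277.9 in replicate 2), and its summit also had GCGCAGG within 100 bp. The next, 64 bp from WBGene00023042 in an intron of sulp-3, had 496.6 (230 and 257.1). A promoter window of a coding gene held 10 of the 68, beside 35.8% of all X peaks and 21 of the 82 autosomal peaks near tRNA genes.

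**Figure D3:**
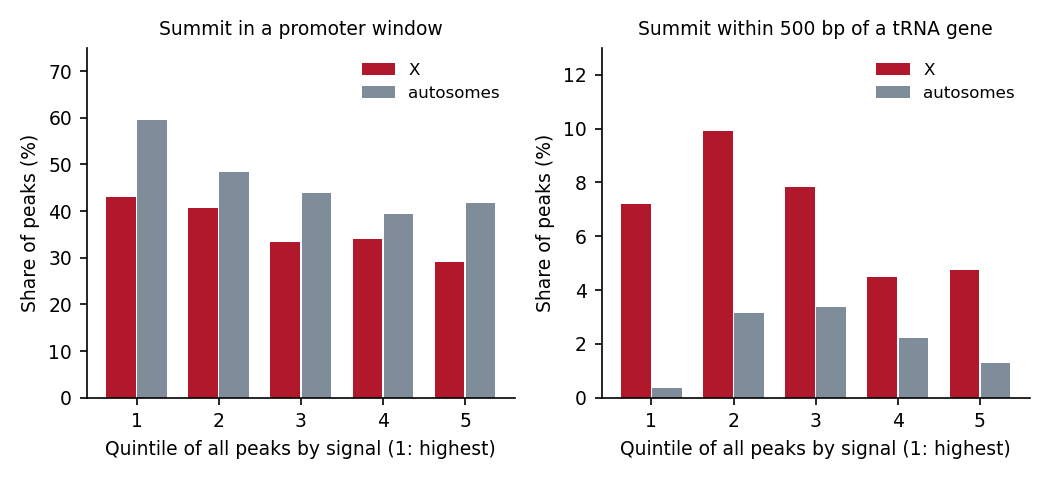
Share of X peaks (red) and autosomal peaks (grey) with the summit in a promoter window, left, and within 500 bp of a tRNA gene, right, by quintile of the signal ranking of all peaks. X is lower on the left and higher on the right in each of the 5 quintiles.

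Sequence at the X summits differed from that at autosomal summits in base composition and in 2 of 5 motifs. Within 100 bp of the summit, GC content averaged 42.6% on X and 41.2% on autosomes (difference 1.41 points, 95% interval 0.695 to 2.13, adjusted p = 4.60e-04, n = 4963 peaks), whereas in all tiles of the same length cut from the genome it was 35.2% on X and 35.5% on autosomes. Summits of single autosomes ranged from 39.7% on V to 42.25% on I, so X lay little above I. The replicates' best peaks gave 42.2% and 42.6% on X against 40.9% and 41.35% on autosomes, so that X was higher in each replicate. On the 9926 highest pooled peaks the difference was 0.638 points and did not pass (adjusted p = 0.0608, n = 9926 peaks).

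The 7 bases GCGCAGG, on either strand, were within 100 bp of the summit in 31 X peaks (3.08%, exact 95% interval 2.10 to 4.34) and in 52 autosomal peaks (1.31%), where the autosomes ranged from 1.06% to 1.54%. The motif itself was no more frequent on X, at 0.380% of X tiles and 0.383% of autosomal tiles, so that the share at summits was 8.09 times that of tiles on X and 3.43 times on autosomes. The replicates' best peaks gave 3.385% and 3.35% on X and 1.27% and 1.27% on autosomes, and the odds ratio was 2.38 (95% interval 1.65 to 3.44, adjusted p = 2.67e-05, n = 4963 peaks). All 31 X peaks overlapped a best peak of both replicates, beside 84.3% of all X peaks and 45 of the 52 autosomal peaks with the motif. On X this overlap was 40% in the lowest quintile by signal and 100% in the highest, which held 14 of the 31. Signal comes from the same 2 replicates, so the overlap is no separate support. The median signal of the 31 was 251, against 160 over X and 162 for the 52 autosomal peaks with the motif. A promoter window held 7 of the 31, beside 35.8% of all X peaks and 27 of the 52 autosomal ones. Intergenic were 25 of the 31, beside 70.7% of all X peaks. The 31 were spread over X, with 14 in the left of 3 equal parts, 6 in the middle and 11 in the right. Peaks of this kind included the one in the mom-1 intron shown in the sequences, with 819.4 (448.3 in replicate 1 and 379.3 in replicate 2), one 2563 bp from F22H10.2 with 694.3 (358.3 and 327.8), and one 3988 bp from W02H3.3 with 622.8 (334.2 and 286.1). Whether dosage compensation proteins are present at these places was not tested.

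**Figure D4:**
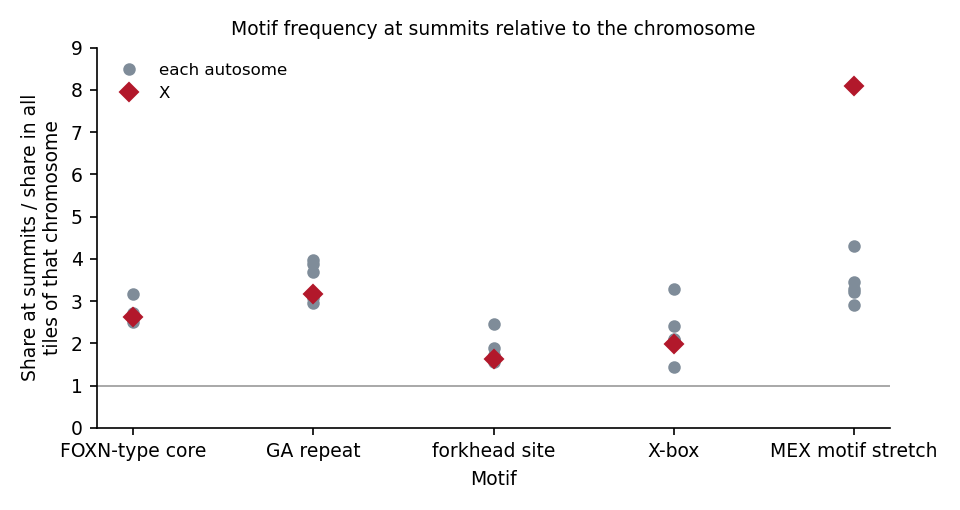
Share of summits with each motif within 100 bp, divided by its share in all tiles of the same length on that chromosome, for X (red diamonds) and each autosome (grey circles). For the MEX motif stretch (GCGCAGG) X stands at 8.09 and the autosomes between 2.90 and 4.31; for the other 4 motifs X lies within the range of the autosomes.

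GAGAGA repeats were at 30.2% of X summits and 35.7% of autosomal ones (odds ratio 0.778, 95% interval 0.649 to 0.932, adjusted p = 0.0182, n = 4963 peaks), but X lay within the range of single autosomes, from 28.7% to 41.9%. Tiles held it at 9.50% on X and 10.1% on autosomes. Among the highest 2481 peaks the odds ratio was 0.863 and did not pass (adjusted p = 0.34, n = 2481 peaks). GACGC was at 290 X summits (28.8%, against 31.2% on autosomes, adjusted p = 0.206, n = 4963 peaks; tiles 10.9% and 11.4%), and with GC content as a covariate the odds ratio of 0.892 became 0.771 and passed, as it did with the best peaks of replicate 1 alone (0.842). GTAAACA was at 52 X summits (5.16% against 3.77%, adjusted p = 0.0716, n = 4963 peaks), where tiles held it at 3.15% on X and 2.08% on autosomes, and it passed with GC content as a covariate (odds ratio 1.48, adjusted p = 0.0279, n = 4963 peaks). The X-box was at 34 X summits (3.37% against 3.51%, odds ratio 0.958, 95% interval 0.622 to 1.48; tiles 1.70% and 1.58%). None of the 5 motifs was found at 453 X summits, whose median signal was 140.

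X peaks were not concentrated in the middle of the chromosome. Divided into 3 parts of equal length, X held 310 peaks in the left, 328 in the middle and 370 in the right part, so that the middle part had 32.5%, whereas on each autosome it had between 39.2% and 45.1%. Coding genes were 35.7% in the middle part of X and 35.98% to 40.6% in that of the autosomes. Over full 1-Mb segments, X counts ran from 41 to 85 with a median of 52 and an SD of 13.2, and autosomal ones from 7 to 95 with an SD of 17.8. The densest segment was chrX:8000001-9000000 with 85 peaks (88 and 85 in the best peaks of replicates 1 and 2), and the sparsest was chrX:1-1000000 with 41 (44 and 43). The longest stretch of X without a summit was 152933 bp, between 7501156 and 7654089, and holds 23 coding genes. Each autosome had a longer one, from 219053 to 643983 bp. These values along X are descriptions with no test.

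**Figure D5:**
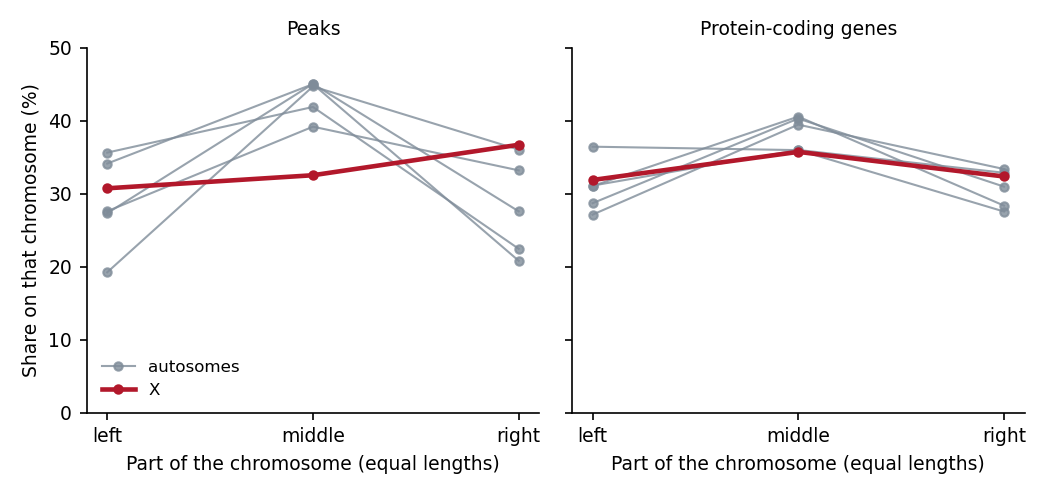
Share of each chromosome's peaks (left panel) and coding genes (right panel) in its left, middle and right part (equal lengths), with X in red and the 5 autosomes in grey. In the middle part X has 32.5% of its peaks and every autosome 39.2% or more.

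Close neighbours on X were about as common as on autosomes. Another summit lay within 2000 bp for 357 X peaks (35.4%) and for 35.7% of autosomal peaks (odds ratio 0.987, 95% interval 0.784 to 1.24, adjusted p = 0.908, n = 4963 peaks). Joined at that distance, the X peaks formed 799 runs, of which 651 were single peaks, 105 pairs and 43 longer. The longest run had 8 summits over 9416 bp around mdl-1, which encodes a Mad-type partner of MXL-1, with signals from 101.6 to 517.9. The summit 70 bp upstream of mdl-1 had 404.5 (218.9 in replicate 1 and 193.9 in replicate 2). Runs of 5 lay at ags-3 and ift-81, which overlap on opposite strands, and at olrn-1.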

How the data were processed

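Peak lists of 2 biological replicates, their pool and the IDR-thresholded list, on ce11, were used as the authors deposited them. The deposited signal per peak has no stated scale and was used within a list only. The −log10 q-values deposited by the authors reached a common limit for 82.5% of the reproducible peaks and were not used for ranking. The summit offset is deposited per peak, and it was added to the peak start. Aligner, caller and IDR cutoff are not given in the sources used here. The files hold no read counts, so depth is unknown, and exact (Clopper-Pearson) intervals cover counting only.

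Coordinates are 1-based. Genes are from Ensembl release 115 and sequence is from the RefSeq genome, both of the same assembly as ce11. The reproducible peaks of X were compared with those of the autosomes by quasi-Poisson models over 103 segments of 1 Mb, or by logistic and linear models across all peaks (or coding genes) with errors clustered by segment, and two-sided Wald tests adjusted by Benjamini-Hochberg over 20 tests (statsmodels 0.14.6, Python 3.11.15). The quasi-Poisson and logistic models were tested on simulated segments with independent effects. That simulation does not cover differences between whole chromosomes. A best peak is one of the 4963 highest of a replicate's list, matched by an overlap of 1 bp or more; where pooled peaks overlap the same replicate peak they share its signal. Alternatives changed the list, replicate, window, segment size or covariates. Motifs were searched on both strands; the X-box is a 14-letter consensus of the RFX site.

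The regions, motifs and 25 gene lists were chosen with earlier results of these data known, and so were the tests. Of 432 listed symbols 7 were not found as coding genes, and they are not reported. Genes are named for the 20 highest X peaks, up to 4 bound X members of each list by signal, all X members of the cilium and sex lists, and the extremes of density; others are said to be picked after their values were seen. Of 8 peaks for which the rule gave a sequence, the 6 highest by signal are printed.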

Additional observations from a re-analysis of the deposited data

How the results depend on the processing

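The design has 1 group of 2 replicates. X and autosomal values come from the same libraries and so are paired within a replicate, but with 2 replicates no paired test was run. Over 161 alternatives to the 20 tests, 9 passed where the reported value had not, 3 no longer passed and 12 turned direction, of which 1 (bound genes by nearest gene) is also among the 9; the others kept direction and call. Of the 7 results that passed, 4 (promoter windows, tRNA genes, distance to a coding 5′ end and GCGCAGG) passed in every alternative run, and none turned. For the first 3, no alternative took in how much promoter or tRNA gene sequence X holds. Per Mb of promoter window the density ratio was 1.15 and did not pass. Counted by gene, 29.0% of X and 26.2% of autosomal tRNA genes had a summit within 500 bp. GAGAGA fell short among the highest 2481 peaks (0.863), GC content on the doubled list (0.638 points), and density outside promoters without peaks near tRNA genes (1.26), an alternative chosen after seeing the data. On the doubled list density (1.297), signal (-0.0891 log2) and GACGC (0.873) passed, coding sequence (0.998) turned, and so did close summits (1.13) and bound genes (1.05). GACGC also passed within 50 bp (0.693), where GTAAACA did not (1.44). With GC content as a covariate both GACGC (0.771) and GTAAACA (1.48) passed. Close summits turned within 5000 bp (1.11), the replicate signal ratio with signal as a covariate (-0.00188), the X-box among the highest 2481 (1.09), and bound genes with a window of 2000 and 500 bp (1.02) and by nearest gene (1.66). With one replicate left out, density was 1.20 to 1.23, GACGC 0.842 to 0.867, close summits 1.02 to 1.07, bound genes 0.965 to 1.00 and the X-box 0.881 to 1.13; density and GACGC passed without replicate 2, close summits turned without either, bound genes without replicate 2 and the X-box without replicate 1. Replicate support could not be fitted among the highest 2481 peaks, where it was 100% on X and 99.9% on autosomes. The cause of these changes was not tested. With 2 replicates and no counts, no spread per peak could be had.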
